A study of Mus musculus with 15 samples.

Results

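NRL occupancy was described at the peaks that the authors' annotation assigns to 6 genes of retinal progenitor cells and the Notch pathway: Notch1, Dll1, Id1, Id3, Nfia and Zfp36l1. Every row of the quantified peak table with one of these symbols was taken. Nfia had 2 peaks and each other gene 1, which makes 7 of the 8996 peaks of the table. NRL, a Maf-family basic leucine zipper factor that sets rod photoreceptor identity, was profiled by CUT&RUN, in which an antibody directs a nuclease to its target in permeabilised cells and the DNA cut out around it is sequenced. The cells were dissociated from whole retinas of C57BL/6J mice, 250000 per experiment, and no group carried a transgene, mutation or treatment. The groups differed in age alone, taken at postnatal day 2 (P2), day 4 (P4), day 10 (P10) or day 28 (P28). The table held 8 libraries, 2 per age (replicates 3 and 4, but 1 and 4 at P10), and the other 7 of the 15 labelled libraries were not analysed here. Whether the replicates are from different mice is not stated in the labels, so p-values measure the spread between these libraries, which may be technical. No library without the NRL antibody was used, and in whole retina fewer cells bearing NRL and less NRL per cell at a site cannot be told apart. The title of the series asks how NRL occupancy develops and what c-Jun, another basic leucine zipper factor, does in early rods.

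Notch signalling keeps retinal progenitors dividing. A ligand such as Dll1 on 1 cell engages the receptor Notch1 on its neighbour, the receptor's intracellular part is cut free, and in the nucleus it joins the DNA-binding protein Rbpj to switch on Hes and Hey repressors of neuronal genes. Id proteins lack a DNA-binding region and hold back the basic helix-loop-helix factors that drive neurogenesis. NFI factors such as Nfia mark late progenitors, and Zfp36l1 binds AU-rich messages and speeds their decay. These genes are best known from progenitors and Müller glia, whereas NRL is made in rods.

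Signal is given as RPKM (reads per kilobase of peak, scaled to the size of the library), rebuilt from the reads behind the deposited values with each peak's own width. Reads inside peaks ranged from 49430 to 227692 per library, 0.940 to 3.08% of the scale, with the P10 libraries highest. The median RPKM of all peaks went from 2.17 at P2 through 3.51 (P4) and 6.27 (P10) to 3.81 (P28), so differences are read beside the shift of all peaks. Peaks lay within 50 kb of a start of 13 of 13 rod phototransduction genes, 0 of 12 Müller glia markers and 0 of 12 microglia and vessel genes, against 27.3% of all protein-coding genes. Binding near a gene does not measure its transcript, and expression of these markers was not measured in these files.

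Promoter sequences of Notch1, Id3 and Zfp36l1 are shown first, as the genes whose peaks passed a test of P28 against an earlier age. Notch1 and Id3 fell from P10 to P28, and Zfp36l1 was higher at P28 than at P2. Each run is the 250 bases before the start of transcription, 5′ to 3′ on the gene's strand, from RefSeq on GRCm38.p6. The Notch1 window is chr2:26503823-26504072 on the minus strand, the Id3 window is chr4:136143572-136143821 on the plus strand and the Zfp36l1 window is chr12:80113014-80113263 on the minus strand. Capitals mark a match to the AP-1 motif TGANTCA.
Notch1: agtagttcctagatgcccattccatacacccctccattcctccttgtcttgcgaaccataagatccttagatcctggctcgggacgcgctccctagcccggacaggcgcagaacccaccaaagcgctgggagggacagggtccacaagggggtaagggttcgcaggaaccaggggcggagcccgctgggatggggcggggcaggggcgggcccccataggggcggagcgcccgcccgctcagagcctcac
Id3: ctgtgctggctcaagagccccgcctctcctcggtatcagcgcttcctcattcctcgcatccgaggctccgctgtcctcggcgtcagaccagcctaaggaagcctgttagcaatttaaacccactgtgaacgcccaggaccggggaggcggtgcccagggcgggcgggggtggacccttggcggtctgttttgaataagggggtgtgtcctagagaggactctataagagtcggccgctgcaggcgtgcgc
Zfp36l1: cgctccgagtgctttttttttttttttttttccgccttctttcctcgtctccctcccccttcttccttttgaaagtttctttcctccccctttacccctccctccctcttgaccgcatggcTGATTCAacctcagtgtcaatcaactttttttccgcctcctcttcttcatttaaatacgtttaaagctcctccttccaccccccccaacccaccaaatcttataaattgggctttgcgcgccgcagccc

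Of the 7 peaks, the 6 outside Id1 overlapped no RefSeq promoter window of their gene, and no window was at hand for Id1, so these letters show the gene starts and not the bound sites. The windows were searched on both strands for TGCTGA (the core of a Maf element), TGANTCA (AP-1), TGACGTCA (CRE), TAATCC (CRX), TGGGAA (RBPJ), CANNTG (E-box) and the NFI palindrome. The Notch1 and Id3 windows held none of them. The Zfp36l1 window held 1 AP-1 match, starting 129 bases before the start, and 1 of the 2 Dll1 windows held another, 109 bases before its start. AP-1 matches were found in 6.75% of all 32851 promoter windows of this length. E-boxes, which 66.2% of windows hold, were the other matches, in Nfia and in both Dll1 windows. Base composition differed between the 3 printed windows, with a GC content of 66% for Notch1, 62.8% for Id3 and 48.4% for Zfp36l1, beside a median of 55.6% over protein-coding promoters.

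The peaks lay in different parts of their genes. Notch1 had its peak at chr2:26500523-26501037 (515 bp, GRCm38), 2785 bp downstream of the start and annotated to exon 2 of a short 2-exon transcript of the gene, ENSMUST00000131393.1. The Dll1 peak, chr17:15343101-15343609 (509 bp), was intergenic, 24781 bp from the annotated transcript and 32214 bp from the nearer RefSeq start of Dll1. The Id1 peak, chr2:152735135-152735299 (165 bp), was a promoter peak 952 bp upstream of the start, and the Id3 peak, chr4:136117386-136117566 (181 bp), lay 25931 bp upstream of its gene in intergenic DNA. The Nfia peaks, chr4:97772164-97772564 (401 bp) and chr4:97773107-97773469 (363 bp), lay 170 bp before and 373 bp after the start of the transcript ENSMUST00000152023.7. They are called upstream and downstream here. That start is internal to the gene: the peaks were 190221 and 191164 bp from the RefSeq start of Nfia, inside the gene, and they also lay inside the span of the non-coding gene Gm38709. The Zfp36l1 peak, chr12:80115650-80116015 (366 bp), was 2637 bp upstream of Zfp36l1. It was annotated to the single exon of ENSMUST00000219015.1 and lay in the span of the predicted gene Gm52006, whose start was 1404 bp away, nearer than that of Zfp36l1.

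**Figure D1:**
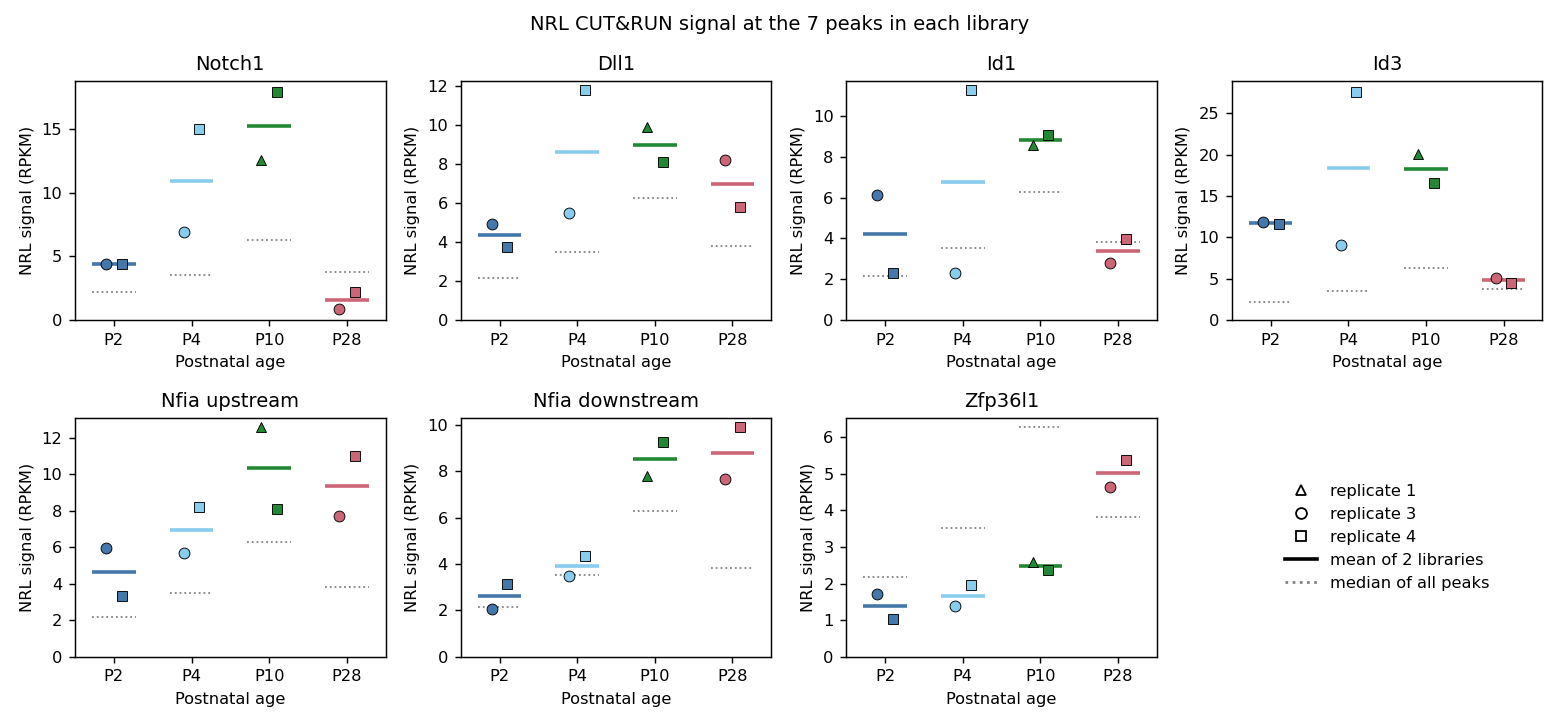
NRL signal (RPKM, vertical axis, from 0) at each of the 7 peaks by postnatal age; points are libraries, solid lines means of 2 libraries and dotted lines the median of all 8996 peaks at that age. Notch1 and Id3 stood at 1.56 and 4.83 RPKM at P28 against 15.2 and 18.3 at P10, while Zfp36l1 was highest at P28, at 5.01.

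Notch1 showed the widest range of the set as a ratio, 19.9 between its highest and lowest library. The receptor's exon peak measured 4.40 and 4.43 RPKM in the P2 libraries, 6.90 and 15.0 in those of P4, 12.5 and 17.9 in those of P10 and 0.902 and 2.23 in those of P28. Both P28 libraries lay below each of the other 6, with 3 and 7 reads against 41 and 74 at P10, and the P2 libraries lay below those of P4 and P10. Mean signal was 15.2 ± 3.81 RPKM (SD, n = 2) at P10 and 1.56 ± 0.936 (SD, n = 2) at P28, and scaled reads were 10.1-fold lower at P28 (exact 95% interval 5.28 to 21.5, counting error only). On the log2(RPKM + 1) scale the peak fell by 2.69 ± 0.54 (SE) from P10 to P28, with an adjusted p of 0.0015 by limma. From P4 to P28 it fell by 2.18, with an adjusted p of 0.011. The fall from P10 kept its call in all 16 alternatives, with adjusted p from 2.5e-05 to 0.034. The fall from P4 lost its call with RPKM as deposited (adjusted p 0.15) and without P4 replicate 4 or P28 replicate 3. From P2 to P10 the peak rose by 1.56, with an adjusted p of 0.020, beside a rise of 1.18 in the median of all peaks. Centring each library on its own median left a difference of 0.38 with an adjusted p of 0.57. The call for P10 against P2 held in 10 of 16 alternatives. It was also lost with the replicate block (adjusted p 0.16) and without any 1 of the P2 or P10 libraries. The means ran from P10 through P4 and P2 down to P28, and no pair of neighbours in that order differed past the threshold: adjusted p was 0.49 for P10 against P4, 0.35 for P4 against P2 and 0.15 for P28 against P2. With libraries centred P28 was called lower than P2, by −1.71 with an adjusted p of 0.014. Among all peaks at an age, Notch1 stood at percentile 84.1 (P2), 91.6 (P4), 85.3 (P10) and 12.9 (P28).

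The Dll1 peak, near the gene of a Notch ligand, passed no test in the 6 comparisons. Its libraries measured 4.95 and 3.74 RPKM in the P2 libraries, 5.49 and 11.8 in those of P4, 9.91 and 8.09 in those of P10 and 8.22 and 5.79 in those of P28. The P2 libraries were the lowest, and those of the 3 later ages overlapped. P28 differed from P10 by −0.33 on the log2 scale, with a 95% interval of −1.43 to 0.77, and P10 from P2 by 0.91, with an interval of −0.19 to 2.01 and an adjusted p of 0.15. These intervals hold changes of more than 2-fold, so similar levels from P4 to P28 were not shown. P10 against P2 gave a call at Dll1 in 2 of 16 alternatives. At P28, Dll1 stood at percentile 87.5 and Notch1 at 12.9.

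The peaks of the Id genes, inhibitors of basic helix-loop-helix factors, were both lower in the P28 libraries than in the P10 libraries, and Id3 passed the test. Id3 had the highest mean signal of the set: 11.8 and 11.6 RPKM in the P2 libraries, 9.12 and 27.6 in those of P4, 20.0 and 16.5 in those of P10 and 5.13 and 4.52 in those of P28. Both P28 libraries lay below all 6 others, and the P4 libraries spanned the range of P2 and P10. From P10 to P28, Id3 fell by 1.72 ± 0.56 (SE), with an adjusted p of 0.031. In scaled reads it was 3.74-fold lower (exact 95% interval 1.91 to 7.99), 11 reads against 47. That call held in 8 of 16 alternatives. It was lost with each P10 or P28 library left out in turn (adjusted p 0.22 and 0.13 without P10 replicates 1 and 4, and 0.11 and 0.16 without P28 replicates 3 and 4) and with libraries centred (adjusted p 0.065). With centring, Id3 was instead called lower at P28 than at P4 (adjusted p 0.012) and P2 (adjusted p 0.0099); without it those adjusted p were 0.085 and 0.17.

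Id1 rested on few reads. Its promoter peak measured 6.11 and 2.31 RPKM in the P2 libraries, 2.31 and 11.3 in those of P4, 8.60 and 9.07 in those of P10 and 2.82 and 3.97 in those of P28, from 2 to 13 reads per library. The 2 libraries of P4 spanned nearly the whole range of the other ages. P28 differed from P10 by −1.17 ± 0.58 (SE), with an adjusted p of 0.15 and a 95% interval of −2.38 to 0.03. P10 against P2 gave 1.02 with an adjusted p of 0.14, and −0.16 with libraries centred. No comparison at Id1 passed the test with all 8 libraries. Id1 was called in 2 alternatives, lower at P28 than at P10 with those 2 ages fitted alone (adjusted p 0.025) and higher at P10 than at P4 without P4 replicate 4 (adjusted p 0.040).

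The Nfia peaks on either side of the internal start, 542 bp apart, had higher mean RPKM at P10 and P28 than at P2 and P4. The upstream peak measured 5.97 and 3.32 RPKM in the P2 libraries, 5.70 and 8.19 in those of P4, 12.6 and 8.09 in those of P10 and 7.73 and 11.0 in those of P28. The P2 libraries lay below those of P10 and P28, which overlapped, and no comparison passed the test. P10 against P2 gave 1.02 with an adjusted p of 0.11, and −0.17 with libraries centred. At the downstream peak the values were 2.08 and 3.14 in the P2 libraries, 3.50 and 4.33 in those of P4, 7.81 and 9.28 in those of P10 and 7.68 and 9.92 in those of P28. Here all libraries of P10 and P28 lay above all libraries of P2 and P4. From P2 to P10 the downstream peak rose by 1.41 ± 0.50 (SE), with an adjusted p of 0.024, close to the median rise of all peaks. With libraries centred the difference was 0.23 with an adjusted p of 0.73, and the call was also lost without any 1 of the P2 or P10 libraries (adjusted p 0.054 to 0.15). P28 differed from P2 by 1.45 with an adjusted p of 0.057. At P28 the upstream and downstream peaks stood at percentiles 93.9 and 93.1 of all peaks, the highest of the set, against 74.1 and 66.0 at P10. The percentiles were 85.6 and 61.1 at P2 and 81.6 and 55.8 at P4, so the upstream peak ranked lowest at P10. P28 and P10 differed by −0.12 (95% interval −1.22 to 0.98) upstream and 0.03 downstream, where the interval reached up to 1.07.

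A further pair of peaks lay inside the RefSeq span of Nfia but was assigned by the authors to E130114P18Rik. They were chosen after their values were seen. The nearer, chr4:97816373-97816515 (143 bp), starts 43639 bp past the internal Nfia start. It measured 16.7 and 16.0 RPKM in the P2 libraries, 18.6 and 39.9 in those of P4, 49.6 and 42.8 in those of P10 and 1.08 and 1.14 in those of P28, with 1 read in each P28 library. Every P28 library lay below all others by more than 10 RPKM. From P10 to P28 this peak fell by 4.48 ± 0.54 (SE), with an adjusted p of 5.3e-05. Scaled reads were 41.1-fold lower (exact 95% interval 11.1 to 345), 2 reads against 94. The call held in all 16 alternatives, as did the falls from P4 and P2. The farther peak, starting 53201 bp past the same start, had means of 2.73, 7.93, 8.43 and 2.40 RPKM in order of age. It fell by 1.50 from P10 to P28, with an adjusted p of 0.032 that became 0.12 with libraries centred and 0.064 to 0.28 with any 1 of the P10 or P28 libraries left out. Both intron peaks were in the P4 and P10 lists and in neither the P2 nor the P28 list. The 2 peaks at the internal start did not pass the test from P10 to P28. The difference in change between the peaks of this gene was not tested.

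**Figure D2:**
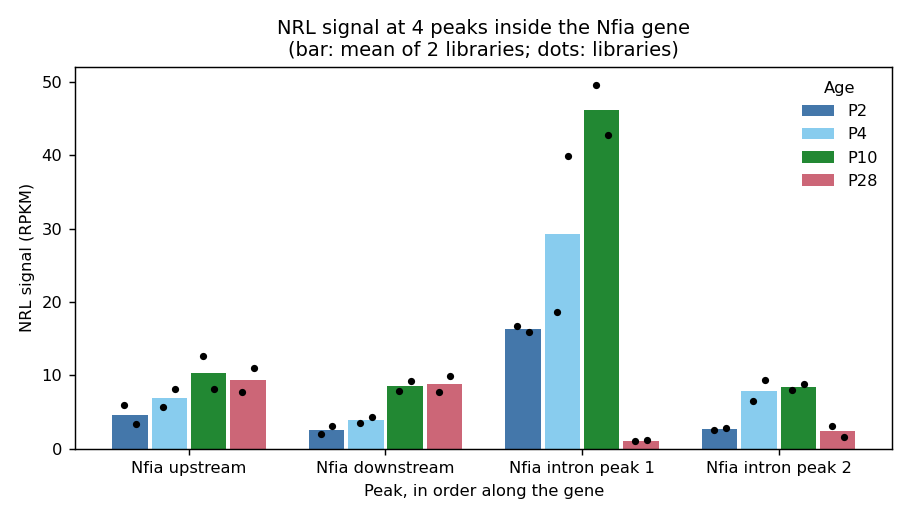
NRL signal (RPKM, vertical axis, from 0) at 4 peaks inside the Nfia gene in order along it, by age; bars are means of 2 libraries and dots the libraries. At P28 the peaks at the internal start had means of 9.37 and 8.80 RPKM, whereas the first intron peak stood at 1.11 after 46.2 at P10.

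Zfp36l1, the RNA-binding protein gene, had the weakest peak of the set before P28. It measured 1.72 and 1.04 RPKM in the P2 libraries, 1.39 and 1.95 in those of P4, 2.58 and 2.39 in those of P10 and 4.66 and 5.37 in those of P28, from 2 to 12 reads per library. Both P28 libraries lay above all 6 others, and those of P2 and P4 overlapped. P28 exceeded P2 by 1.35 ± 0.45 (SE) on the log2 scale, with an adjusted p of 0.046, and scaled reads were 3.45-fold higher (exact 95% interval 1.43 to 9.52). The call held in 3 of the 15 alternatives that kept this peak. Leaving out any P2, P10 or P28 library ended it, with adjusted p from 0.054 to 0.22, and centring gave 0.77 with an adjusted p of 0.26. From P10 to P28, the step at which Notch1 and Id3 fell, Zfp36l1 differed by 0.78 with an adjusted p of 0.20, and by 1.39 with an adjusted p of 0.037 with libraries centred. Its percentile among all peaks went from 23.4 (P2) through 15.2 (P4) and 10.9 (P10) to 70.0 (P28).

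**Figure D3:**
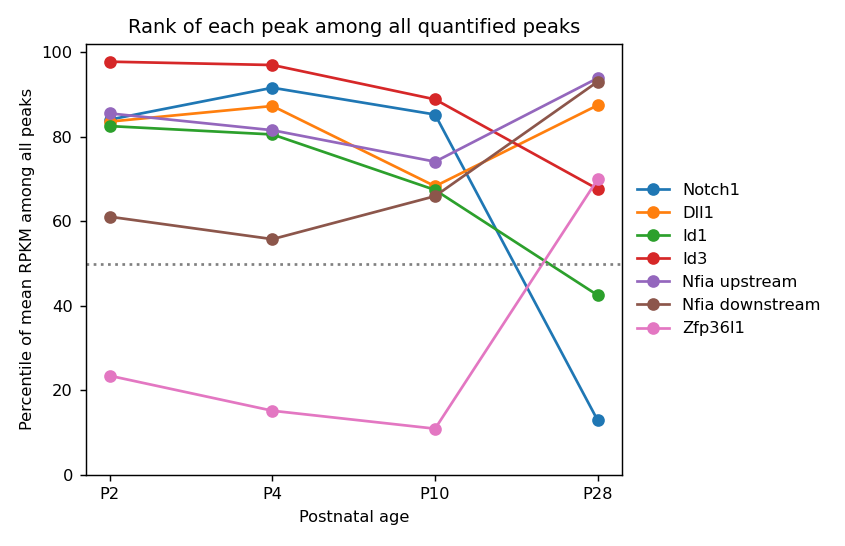
Percentile of each peak's mean RPKM among all 8996 peaks (vertical axis) at each postnatal age, 1 line per peak; the dotted line is the median. Between P10 and P28 Notch1 went from percentile 85.3 to 12.9 and Zfp36l1 from 10.9 to 70.0.

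Counted over the set, the comparisons gave few calls. From P10 to P28, 2 of 7 peaks fell and none rose, where 20.7% of all peaks fell and 1.29% rose. From P2 to P10, 2 of 7 rose and none fell, where 48.5% of all peaks rose and 1.56% fell. P28 against P4 gave 1 of 7 lower and none higher, beside 6.02% and 3.48% of all peaks, and P28 against P2 gave 1 of 7 higher and none lower, beside 9.64% and 3%. P10 against P4 called 0 of 7 peaks, beside 17.1% of all peaks. P4 against P2 called 0 of 7 and 0% of all peaks by limma, where an unadjusted p under 0.05 was reached by 1365 of all peaks and 0 of the 7, and limma-voom called 8 of all peaks. The median log2 difference of the 7 was −0.33 for P28 against P10 and 1.02 for P10 against P2, beside −0.69 and 1.18 over all peaks. With libraries centred, 1 of 7 was lower and 1 higher at P28 than at P10, beside 8.56% and 4.28% of all peaks. P10 against P2 then gave 0 of 7 in either direction, beside 7.95% higher and 5.07% lower. P28 against P4 gave 2 of 7 lower, beside 8.69% lower and 3.07% higher, and P28 against P2 gave 2 of 7 lower, beside 7.26% lower and 3.27% higher. The comparisons share libraries, so their values are not independent of each other. Centring moved the share of calls that were higher among all called peaks from 5.88% to 33.3% for P28 against P10, from 96.9% to 61.1% for P10 against P2, from 91.2% to 46.9% for P10 against P4, from 36.6% to 26.1% for P28 against P4 and from 76.3% to 31.0% for P28 against P2. In P4 replicate 4 all 7 peaks stood above P4 replicate 3, and the median of all peaks was 4.48 RPKM there against 2.52.

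**Figure D4:**
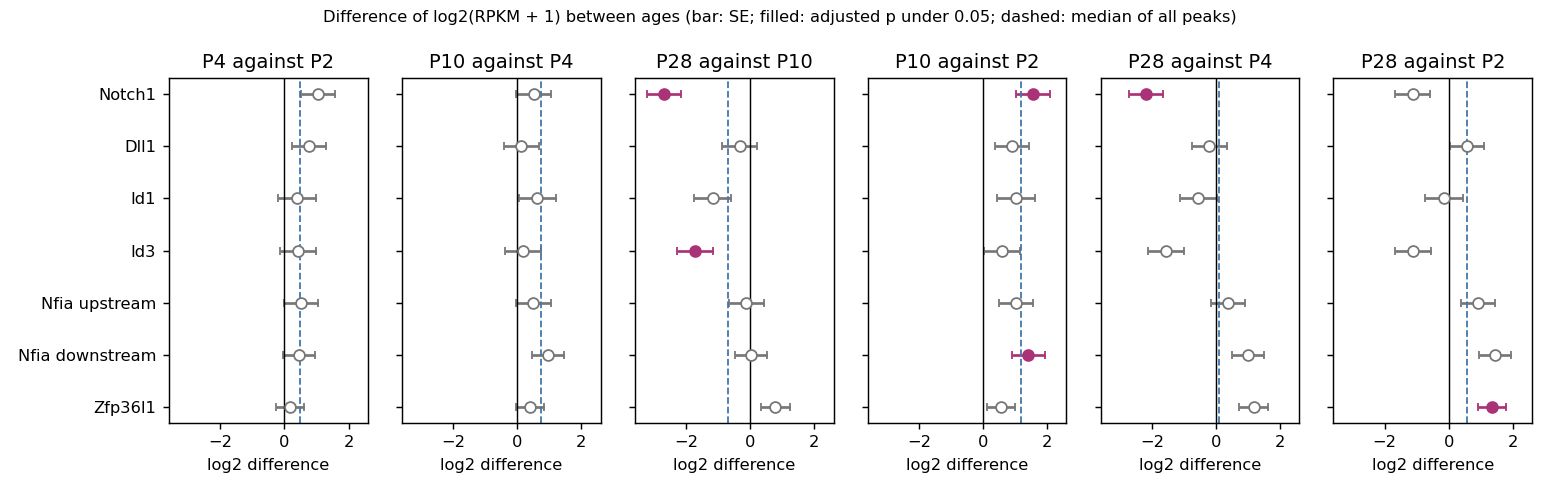
Differences of log2(RPKM + 1) between ages (horizontal axis) for the 7 peaks in 6 comparisons; bars are SE, filled points have an adjusted p under 0.05, and the dashed line is the median of all peaks. The Notch1 point lies lowest for P28 against P10, at −2.69, and only Id3 is also filled there.

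The deposited peak lists, 1 per age, gave a second view. Of the 7 peaks, 1 was in the P2 list (Id3), 4 in the P4 list, 6 in the P10 list (all but Zfp36l1) and 4 in the P28 list. These lists held 13.5, 35, 83.2 and 38.6% of all quantified peaks, in the same order, and their lengths ran from 1221 to 7520. When the 1221 strongest peaks of each list were compared, the counts were 1, 4, 2 and 3, beside 13.5, 13.6, 13.6 and 13.6% of all quantified peaks. Notch1 was in the P4 and P10 lists and not in that of P28, and Id3 in all but that of P28. Both Nfia peaks and Dll1 were in the P10 and P28 lists, and Zfp36l1 in the P28 list alone, with a score of 792 where every other entry of the set had 1000. The authors' signal gave Id3 rank 278 of 1221 at P2, 361 of 3161 at P4 and 871 of 7520 at P10, and Dll1 rank 381 of 3482 at P28.

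Where a peak was in several lists, its summits came from entries that overlap the same quantified peak, so they could not lie far apart. Their spread over all peaks was not taken for comparison. The Id3 summits of P2, P4 and P10 fell within 13 bp, those of the upstream Nfia peak within 28 bp and those of Dll1 within 41 bp. The 2 Notch1 summits were 122 bp apart and those of the downstream Nfia peak 71 bp.

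**Figure D5:**
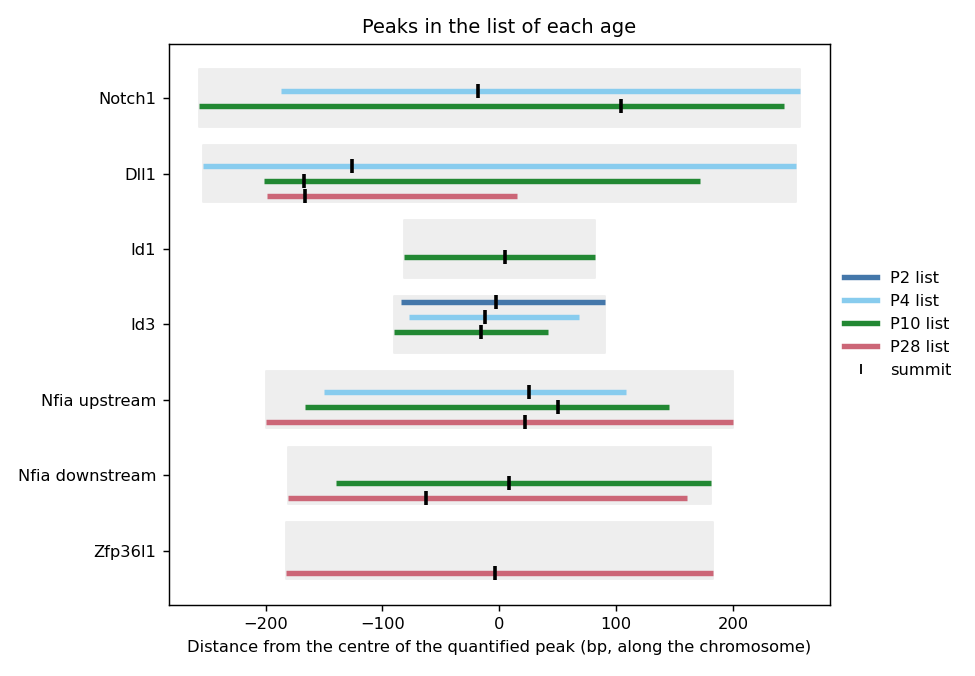
Extent of each peak in the list of each age (coloured lines) and its summit (tick), as distance in bp from the centre of the quantified peak (grey box). Id3 had lines for P2, P4 and P10 with summits within 13 bp, and Zfp36l1 had a P28 line alone.

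Other genes of these pathways were taken from lists, by the strongest peak within 50 kb of a start. Besides the 6 genes, 29 of 73 listed genes (39.7%) had such a peak. Lists differed, counting the 6 genes: 3 of 18 retinal progenitor and neurogenic factors (16.7%) had one, and 3 of 4 Notch receptors (75%). The share of all protein-coding genes was 27.3%. From P10 to P28, 10 of these 29 fell and 1 rose, with a median log2 difference of −1.23 beside −0.69 for all peaks, of which 20.7% fell and 1.29% rose. With libraries centred, 4 fell and 1 rose, beside 8.56% and 4.28% of all peaks. From P2 to P10, 13 rose and 0 fell, with a median of 1.18 that matched that of all peaks, of which 48.5% rose. With libraries centred 2 rose and 3 fell, beside 7.95% and 5.07%. P10 against P4 gave 5 that rose and none that fell, beside 17.1% of all peaks called, and 0 in either direction with libraries centred. P28 against P4 gave 4 that fell and none that rose, beside 6.02% and 3.48% of all peaks. With libraries centred the counts were the same, beside 8.69% and 3.07%. P28 against P2 gave 3 that fell and none that rose, beside 3% and 9.64%. With libraries centred 4 fell and none rose, beside 7.26% and 3.27%. The lists were chosen with earlier results of these data known, so they are not independent evidence of a direction.

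Notch receptors had a peak for Notch1, Notch3 and Notch4, 3 of 4 genes. Notch3 fell by 1.50 from P10 to P28 (adjusted p 0.031), on 2 reads at P28 against 12 at P10. Notch4, a receptor best known from vessels, rose by 1.46 (adjusted p 0.024), on 16 reads at P28 against 4 at P10. With any 1 of the P10 or P28 libraries left out both calls were lost, with adjusted p from 0.074 to 0.29 for Notch3 and from 0.061 to 0.16 for Notch4. Centring gave adjusted p of 0.21 for Notch3 and 0.014 for Notch4. Of the 3 ligand genes with a peak, Dll1, Dll3 and Jag1, the latter 2 fell from P10 to P28. Dll3 fell by 1.43 (adjusted p 0.038), on 4 reads at P28 against 18 at P10, and its call held in 7 of 15 alternatives. Among others, it was lost with libraries centred (adjusted p 0.23), with the replicate block (adjusted p 0.17) and with limma-voom (adjusted p 0.076). It was also lost without P10 replicate 1, P10 replicate 4 or P28 replicate 4. The Jag1 peak had 0 reads in both P28 libraries and 8 over the P10 libraries. With the 0 set to a floor of 3 reads over the age it was 2.33-fold lower, leaving out the counting error of the 8 reads. The Jag1 call held in 11 of 15 alternatives. It was lost with libraries centred (adjusted p 0.086), with the replicate block (adjusted p 0.19) and without P10 replicate 1 or P10 replicate 4.

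In the nuclear complex and its targets, 7 of 13 genes had a peak. Rbpj fell by 1.81 from P10 to P28 (adjusted p 0.011), from a mean of 3.86 RPKM to 0.447, on 1 read at P28 against 10 at P10. Its call held in 8 of 15 alternatives. Among others, it was lost with libraries centred (adjusted p 0.17), RPKM as deposited (adjusted p 0.088) and the replicate block (adjusted p 0.14). It was also lost without P10 replicate 1, P10 replicate 4 or P28 replicate 3. Smad1, which carries the BMP signal that induces Id genes, fell by 2.12 (adjusted p 0.0053), on 2 reads at P28 against 16 at P10. Its call held in 14 of 16 alternatives, and was lost with the replicate block (adjusted p 0.098) and without P10 replicate 4.

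Of the rod phototransduction genes, 0 of 13 passed the test in either direction from P10 to P28, where 20.7% of all peaks fell and 1.29% rose. Their median log2 difference in that step was −0.89, beside −0.69 for all peaks. Not every gene was lower at P28: Gnat1 had a mean of 70.1 RPKM there against 60.5 at P10. From P2 to P10, 13 of 13 rose, where 48.5% of all peaks rose. Whether the Notch pathway genes differ from the rod genes from P10 to P28 was not tested.

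Among genes that rose from P2 to P10, Nfic, an NFI factor like Nfia, rose by 2.58 (adjusted p 0.00088). Its libraries measured 4.12 and 2.77 RPKM at P2 and 23.5 and 27.2 at P10, and the call held in all 16 alternatives. Nfic then fell from a mean of 25.4 RPKM at P10 to 6.06 at P28 (adjusted p 0.017), and lost that call with any 1 of the P10 or P28 libraries left out (adjusted p 0.058 to 0.13). Neurl1a, a ubiquitin ligase that acts on Notch ligands, rose by 2.43 (adjusted p 0.00065) and Mfng, a glycosyltransferase that modifies Notch receptors, by 2.11 (adjusted p 0.0028), the latter from 3 reads at P2 to 23 at P10. Neurl1a fell by 1.46 from P10 to P28 (adjusted p 0.038), a call lost with libraries centred (adjusted p 0.14) and with any 1 of the P10 or P28 libraries left out (adjusted p 0.096 to 0.24), and with RPKM as deposited its difference was 0.46 (adjusted p 0.75). For P10 against P2 with libraries centred Neurl1a kept its call (adjusted p 0.044) and Mfng did not (adjusted p 0.20). In the ZFP36 family Zfp36l2 rose by 1.47 from P4 to P10 (adjusted p 0.047), on 5 reads at P4. With libraries centred its difference was 0.76 (adjusted p 0.40). The call held in 6 of 15 alternatives, and among others was lost with limma-voom (adjusted p 0.073) and the replicate block (adjusted p 0.14). From P2 to P10 Zfp36l2 was not called.

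The 7 peaks fell into different patterns over the 8 libraries, given as correlations of log2 signal that share library depth and carry no test. Notch1 and Id3 had a Pearson r of 0.90 over the 8 libraries, and the 2 Nfia peaks 0.74. The downstream Nfia peak and Zfp36l1 had 0.78, and Id3 and Zfp36l1 −0.56. Among peaks at or near protein-coding genes, the pattern most like Notch1 was at the start of Wbp1l, with r of 0.99 over 8 libraries and means of 6.99, 20.6, 26.6 and 1.83 RPKM in order of age. For Id3 it was a peak near Prss52, with r of 0.99 and means of 9.90, 16.6, 18.6 and 3.32. For Zfp36l1 it was a peak near Abcc12, with r of 0.97 and means of 0.954, 1.56, 4.28 and 10.9. Map3k3 was most like Dll1 (r of 0.97), Ccdc47 most like Id1 (0.97) and Ybx1 most like the upstream Nfia peak (0.96).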

How the data were processed

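NRL CUT&RUN libraries of mouse retina were analysed from the authors' deposited tables. Per the submitters' processing notes, the tools were MACS2 2.2.5, Bowtie2 2.3.5.1, Trimmomatic 0.38, bedtools 2.29.0, Picard 2.20.8 and SAMtools 1.9, and the builds GRCm38.p6 and ASM584v2, with no role or order stated. How a library's scale, the annotation and the replicates behind each list were set was not given in the sources used here.

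The deposited peak table holds RPKM made by the authors. Its header does not name the unit, which was read from the values: each is a whole number of reads over a width and 1 scale per library, and 100% of values gave whole reads within 0.001. In each further column the width used belonged to a peak 39 rows earlier, so RPKM was rebuilt with each peak's own width. The lists of peaks per age hold the authors' deposited signal and score, used to rank peaks within a list. Overlap means 1 bp or more.

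The test was limma 3.58.1 (R 4.3.3) on log2(RPKM + 1) (trend and robust empirical Bayes, age as factor, all 8 libraries in 1 fit, no filter), which understates the change of weak peaks. Benjamini-Hochberg adjustment ran over all 8996 peaks, and a call is an adjusted p under 0.05. The fit was also run on simulated reads with known changes at P28, most of which it did not call. A missing call therefore does not show that a peak was unchanged. The simulation gave every age the same background, unlike these data. Read ratios have exact binomial 95% intervals, and a count of 0 was set to a floor of 3 reads. Depth limits precision: 3 reads at the median width correspond to 1.16 to 1.77 RPKM. Alternatives were other pseudocounts, a signal filter, centred libraries, values as deposited, the replicate block, limma-voom on recovered reads, leaving out each library, and fitting 2 ages alone. Other tools were SciPy 1.17.1, pandas 2.3.3, NumPy 2.4.6 and Matplotlib 3.10.9 in Python 3.11.15.

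The genes and lists were chosen with earlier results of these data known. Named pathway genes are at most 4 per comparison with the lowest adjusted p, Rbpj, Notch3, Notch4, Dll3 and the P10 to P28 values of Nfic and Neurl1a being added after their values were seen; some genes that the rule names are not reported here. Libraries of an age were not duplicates: the chi-square of their reads over its degrees of freedom ran from 1.16 to 1.57.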

Additional observations from a re-analysis of the deposited data

How the results depend on the processing

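The fall of Notch1 from P10 to P28 was called under all 16 alternatives. Of the 7 peaks, those called from P10 to P28 numbered 2, but 1 with a pseudocount of 0.1, with RPKM as deposited or with the replicate block, 3 with the 2 ages alone (Id1 added, adjusted p 0.025), and 1 to 2 with a library left out. For P10 against P2 the 2 calls became 0 with libraries centred, 1 with RPKM as deposited and 0 with the replicate block, and 0 to 4 with a library left out. For P28 against P4 the 1 call became 2 with a pseudocount of 5, 2 with libraries centred and 0 with RPKM as deposited, and 0 to 2 with a library left out. For P28 against P2 the 1 call became 0 with a pseudocount of 0.1, 0 with the filter at the median signal (which removed Zfp36l1 and left 6 peaks), 2 with libraries centred, 0 with RPKM as deposited and 0 with the replicate block, and 0 to 3 with a library left out. P10 against P4 gave 0 to 1 with a library left out, the 1 being without P4 replicate 4. Among results called or with a log2 difference of at least 1, 1 reversed value was that of Neurl1a for P28 against P10 with RPKM as deposited (0.46). The others were Id1 (−0.16) and the upstream Nfia peak (−0.17) for P10 against P2 with libraries centred. Smaller differences also changed sign under some alternatives. For P10 against P2 the lowest values were −0.28 at Dll1, −0.59 at Id3 and −0.62 at Zfp36l1, each positive in the main fit. Taking the 1221 strongest peaks of each list left 2 of the 6 peaks in the P10 list. Of 31 calls at named pathway genes and the Nfia intron peaks, 4 held under every alternative run, those of Nfic for P10 against P2 and of the nearer intron peak for P28 against each earlier age. Apart from the differences built into the alternatives, the cause was not tested.

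Over all peaks, the 1974 calls from P10 to P28 became 474 with a pseudocount of 0.1, 3116 with 5, 1155 with libraries centred, 886 as deposited, 432 with the replicate block and 3246 with the 2 ages alone. The 4500 calls for P10 against P2 became 1171 with libraries centred, 2515 as deposited and 1681 with the block. The 1541 for P10 against P4 became 8 and 2818 with pseudocounts of 0.1 and 5, 552 centred, 560 as deposited and 183 with the block. The 855 for P28 against P4 became 193 and 1324 with those pseudocounts and 266 as deposited, and the 1137 for P28 against P2 became 336 with 0.1, 706 with the filter and 404 as deposited. The 0 calls for P4 against P2 became 88 with a pseudocount of 5, 82 with the filter, 19 with the 2 ages alone, 69 with the block and 836 without P4 replicate 3. With 1 library left out these counts ran from 507 to 2691 for P28 against P10 (lowest without P10 replicate 1), 2178 to 5100 for P10 against P2 (lowest without P10 replicate 1), 215 to 3040 for P10 against P4 (without P4 replicate 3 and P4 replicate 4), 439 to 1115 for P28 against P4 (lowest without P4 replicate 4) and 604 to 1650 for P28 against P2 (lowest without P2 replicate 4). Deviations of the replicate 4 libraries from the mean of their age had r from −0.013 to 0.085 over 6 pairs. With 2 libraries per age and few reads per peak, this cannot decide whether same-numbered libraries share an origin.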
